A study of Mus musculus with 48 samples.

Results

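The 6 genes described here, *Grin1*, *Grin2a*, *Grin2b*, *Grin2c*, *Grin2d* and *Grin3a*, encode subunits of the NMDA receptor. They were taken by symbol from the expression tables of the mouse cerebral cortex, where they are 6 of 27082 genes in the B6 table and of 18939 in the *APOE*-TR table. All 6 had reads in each of the 48 mice, so all passed the filter on low values in every comparison. The 48 mice formed 12 groups of 4 by genotype, sex and exposure. B6 mice (C57BL/6J, with mouse *Apoe*) breathed filtered air (control) or nPM, a nano-sized urban particulate matter that was re-aerosolized, in sessions of 5 hours, 3 to a week, over 8 weeks, and their labels give an age of 4 months. *APOE*3 and *APOE*4 mice (*APOE*-TR, targeted replacement) carried the human allele in place of mouse *Apoe*, were exposed on the same weekly schedule for 15 weeks, and their labels give 6 months. The B6 and *APOE*-TR exposures were separate, so genotype, duration, age and gene annotation cannot be told apart between them.

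The NMDA receptor is a glutamate-gated, calcium-permeable cation channel of excitatory synapses. It opens when glutamate and a co-agonist, glycine or D-serine, are bound and depolarization has removed the magnesium block of its pore. Every receptor contains the GluN1 subunit, encoded by *Grin1*, which binds the co-agonist. GluN1 assembles with GluN2 subunits, which bind glutamate, or with GluN3 subunits, which bind glycine. GluN2B, from *Grin2b*, prevails in the early forebrain, GluN2A, from *Grin2a*, rises with maturation, and both are abundant in the adult cortex. GluN2C, from *Grin2c*, is best known from the cerebellum and is also found in astrocytes, GluN2D, from *Grin2d*, is known from interneurons and deep brain structures, and GluN3A, from *Grin3a*, lowers calcium permeability and is highest in young brain.

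Levels are given as the authors' CPM (read counts scaled to a common library total) in each mouse, and tests used log2 values. The tables held 2.05 to 24.4 M estimated reads per B6 mouse and 17.8 to 31.3 M per *APOE*-TR mouse, and the lowest subunit value, *Grin2a* in 1 *APOE*3 female control, rested on an estimated 25 reads. Some libraries stood apart. In *APOE*3 female controls 61 and F6 (as the columns number them), the level of a gene relative to the other *APOE*-TR mice fell with the length of its transcript, with slopes of −0.54 and −0.40 log2 units per doubling of length, where the other 30 *APOE*-TR mice had slopes of −0.22 to 0.16. The neuron markers summed to 8480.0 and 7477 CPM in these controls and the excitatory neuron markers to 1103 and 1069 CPM, against 4973 to 6693 and 1448 to 2019 CPM in the other 30. Their oligodendrocyte markers summed to 7101 and 5437 CPM, against 2879 to 5675 CPM, and their cerebellar markers to 203 and 200.1 CPM, against 71.6 to 146 CPM.

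In B6 male controls 0 and 2, the 7 markers of cortical excitatory neurons summed to 204 and 247 CPM, against 758 to 1734 CPM in the other 14 B6 mice. Interneuron markers in the same controls summed to 959 and 1055 CPM, against 423 to 697 CPM. B6 libraries also differed in how level followed GC content. The GC slope, in log2 units per 10 percentage points, was −0.49 to −0.27 in female controls, −0.33 to 0.082 in nPM females and 0.018 to 0.47 in males. Many, but not all, subunit and called partner differences that rest on these libraries are given also without some of the 4 named controls. The part of library quality or cell makeup in any difference was not tested. Fewer cells of a type and less RNA per cell cannot be told apart in these whole-cortex samples.

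In mm10, *Grin1* lies on chromosome 2 from 25291181 to 25319188, *Grin2a* on chromosome 16 from 9567898 to 9995561, *Grin2b* on chromosome 6 from 135713233 to 136173512, *Grin2c* on chromosome 11 from 115249169 to 115267244, *Grin2d* on chromosome 7 from 45831883 to 45878379 and *Grin3a* on chromosome 4 from 49661611 to 49845745, as the B6 table bounds them, all on the minus strand. The GENCODE transcripts used for length differed in GC content, with 59.4% in *Grin1*, 62.1% in *Grin2c* and 65% in *Grin2d* against 44.8% in *Grin2a*, 45.7% in *Grin2b* and 49.2% in *Grin3a*. The gene bounds of the tables differed for the 3′ UTR of the GluN2 genes. The *Grin2a* 3′ UTR of 9932 bases lies wholly inside the B6 bounds, and 1.21% of it lies inside the *APOE*-TR bounds. For the *Grin2b* 3′ UTR of 18868 bases the *APOE*-TR bounds hold 12.2%, and for that of *Grin2d* they hold 33.3%, whereas the 3′ UTRs of *Grin1*, *Grin2c* and *Grin3a* are inside in both tables. The median level was 4.9 times higher in the B6 table for *Grin2a*, 6 times for *Grin2b* and 2.08 times for *Grin2d*, while for *Grin1*, *Grin2c* and *Grin3a* it was 0.337, 0.511 and 0.412 times that of the *APOE*-TR table. The genes whose 3′ UTR was cut were thus those with the higher level in the B6 table, and levels are compared below only within a table.

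Per kilobase of transcript inside a table's bounds, *Grin1* had the highest mean level of the 6 in each of the 12 groups. In *APOE*4 male controls it stood at 46.3 ± 4.63 CPM per kilobase (SD). The next were *Grin2c* at 5.4 ± 0.546, *Grin3a* at 4.91 ± 0.439, *Grin2b* at 4.71 ± 1.5 and *Grin2a* at 4.5 ± 0.827 CPM per kilobase, neighbours whose means lie within 1 SD of each other. *Grin2d* was lowest there at 1.01 ± 0.148 CPM per kilobase. In the 8 *APOE*-TR groups *Grin2d* was last in each and *Grin1* was several times above the next gene. In B6 female controls, whose table counts the full 3′ UTRs, *Grin1* at 11.9 ± 1.78 and *Grin2a* at 11.1 ± 0.753 CPM per kilobase did not differ beyond their spread, followed by *Grin2b* at 9.41 ± 1.82. *Grin2c* at 3.04 ± 0.377, *Grin3a* at 1.85 ± 0.364 and *Grin2d* at 1.16 ± 0.681 CPM per kilobase came after these.

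The *Grin2a* to *Grin2b* ratio, taken in each mouse as a log2 ratio of CPM, ranged from −1.64 to −0.095 in *APOE*-TR mice with a median of −0.82, and from −1.99 to 0.25 in B6 mice with a median of −0.59. Between mice of a group it varied least in *APOE*4 nPM males (SD 0.067) and most in B6 male controls (SD 1.09), the group that holds controls 0 and 2, whose other 2 controls were at both ends of the B6 range (−1.99 and 0.25). The log2 ratio of *Grin1* to the sum of *Grin2a* and *Grin2b* averaged −2.94 ± 0.21 (SD, n = 4) in B6 female controls and −1.56 ± 0.58 in B6 nPM females, with no overlap (−3.13 to −2.65 against −2.14 to −0.89). In *APOE*3 females it averaged 2.94 ± 0.40 in controls and 2.76 ± 0.36 with nPM, where the ranges overlapped. The controls other than 61 and F6 stood at 2.36 and 3.21. Ratios were not tested, and were not divided by transcript length. Inside the B6 bounds lie 4276 bases of the *Grin1* transcript, 14634 of *Grin2a* and 24060 of *Grin2b*. Inside the *APOE*-TR bounds lie 4276, 4513 and 7498 bases. The ratios therefore do not give which subunit had more transcripts.

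The subunits did not vary as 1 unit. Over the 32 *APOE*-TR mice the pairwise Pearson correlations of their log2 levels were all positive, from 0.43 to 0.97. Without controls 61 and F6 the correlation of *Grin2a* with *Grin2b* was again 0.97, that of *Grin1* with *Grin2a* went from 0.82 to 0.39, and *Grin2a* with *Grin2c* turned from 0.55 to −0.51. Over the 16 B6 mice *Grin2a* and *Grin2b* again varied together (0.73), and *Grin1* correlated with *Grin2a* and *Grin2b* at −0.15 and −0.23. Levels also went with the library slopes. Over the 30 *APOE*-TR mice other than controls 61 and F6, the Pearson correlation with the length slope was 0.94 for *Grin2a*, 0.93 for *Grin2b* and 0.77 for *Grin3a*. It was 0.45 for *Grin1*, 0.22 for *Grin2d* and −0.47 for *Grin2c*. With the GC slope, over the same 30 mice, it was 0.68 for *Grin1*, 0.71 for *Grin2c* and 0.65 for *Grin2d*. For *Grin2a*, *Grin2b* and *Grin3a* it was −0.32, −0.27 and −0.15. Over the 16 B6 mice, *Grin2a* correlated with the GC slope at −0.84, *Grin2d* at 0.71 and *Grin1* at 0.41. With the B6 length slope *Grin2b* correlated at 0.94, *Grin2a* at 0.75 and *Grin1* at −0.24. These are descriptions over mice that share sex, exposure and library with the slopes, which were computed from all genes, the subunits included.

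**Figure D1:**
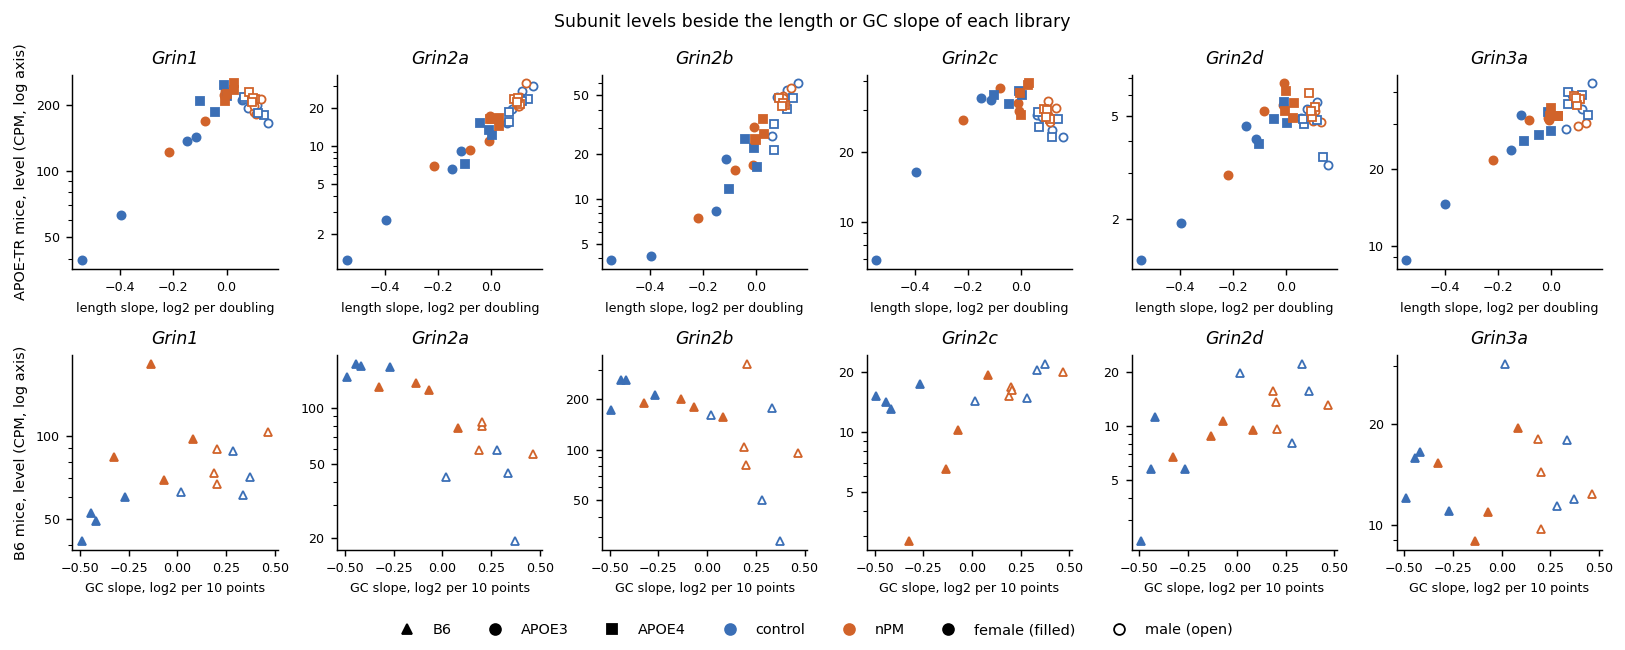
Level of each subunit (CPM, log axis) in each *APOE*-TR mouse against the length slope of its library (top) and in each B6 mouse against the GC slope of its library (bottom). Triangles are B6, circles *APOE*3 and squares *APOE*4 mice, filled for females and open for males, blue for control and orange for nPM. Controls 61 and F6 are the leftmost points of the top row, and *Grin2a* rises along the length slope also among the other 30 mice.

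The nPM response was first tested over all 48 mice with terms for sex and genotype, to ask which genes respond across groups. *Grin1* was higher with nPM, by 0.44 (standard error 0.13) on the log2 scale, or 35.3%. It was the 1 of 6 subunits called at an unadjusted p under 0.005 (adjusted p = 0.302 from limma), where 1.43% of all genes were called. At an unadjusted p under 0.05 were 2 of 6, *Grin1* and *Grin2d*, and 14.6% of all genes. The others had log2 differences of 0.41 (*Grin2a*), 0.44 (*Grin2b*), 0.28 (*Grin2d*), 0.085 (*Grin3a*) and 0.035 (*Grin2c*). Called here means under that unadjusted threshold, and no subunit had an adjusted p under 0.05 in any nPM comparison fitted as the main test. The median of the 6 was 0.35 and that of all genes 0.0054. *Grin2a* and *Grin2b* had differences close to that of *Grin1* with larger standard errors (0.23 and 0.25). Without controls 61 and F6, *Grin1* was still called, at 0.30 (adjusted p = 0.777 from limma). The others were then not called, at 0.19 (*Grin2a*), 0.24 (*Grin2b*), −0.088 (*Grin2c*), 0.20 (*Grin2d*) and −0.028 (*Grin3a*). Without B6 male controls 0 and 2, *Grin1* was called at 0.44 (adjusted p = 0.334 from limma). The others were not called in that fit, at 0.26 (*Grin2a*), 0.32 (*Grin2b*), 0.072 (*Grin2c*), 0.37 (*Grin2d*) and 0.12 (*Grin3a*). The *Grin1* call was lost in males alone (0.12, adjusted p = 0.938), in *APOE*-TR mice alone (0.35, adjusted p = 0.277), with the GC slope as a covariate (0.29, adjusted p = 0.465) and with quality weights on the samples (0.072, adjusted p = 0.67), all from limma.

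**Figure D2:**
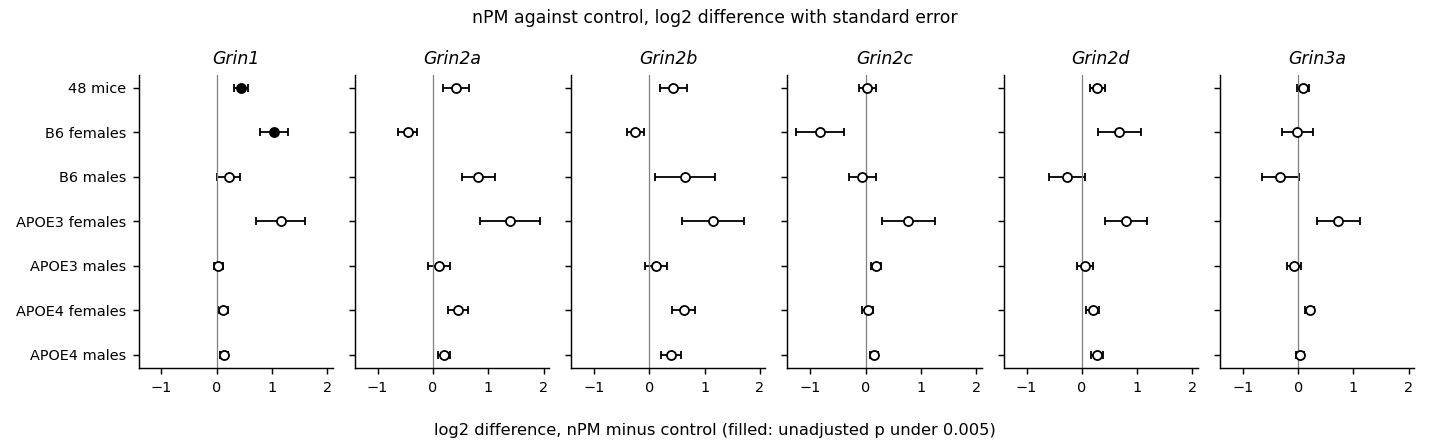
The log2 difference of nPM from control (x axis) for each subunit over 48 mice and in each genotype and sex, with the standard error from limma. Filled points have an unadjusted p under 0.005, which are *Grin1* over 48 mice (0.44) and in B6 females (1.03), and *APOE*3 females have the widest errors.

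In B6 females *Grin1* was higher with nPM, while no other subunit passed the threshold. *Grin1*, the obligatory subunit, measured 52.5, 48.9, 41.6 and 59.9 CPM in the 4 controls and 83.5, 181, 96.9 and 68.8 CPM in the 4 nPM mice. The groups did not overlap, as was the case for 6.76% of all genes, and nPM mouse 51 was far above the others. The means were 50.7 ± 7.63 CPM (SD, n = 4) and 108 ± 50.5 CPM (SD, n = 4), and the log2 difference was 1.03 (standard error 0.25, adjusted p = 0.36 from limma). It was the 1 of 6 subunits called in B6 females, where 1.19% of all genes were called, and 2 of 6 against 10.4% of all genes had an unadjusted p under 0.05. Without nPM mouse 51 it was still called, with a difference of 0.74 (adjusted p = 0.247 from limma). The call was lost with the GC slope as a covariate (0.90, adjusted p = 0.595) and without the filter on low values (1.09, adjusted p = 0.724), both from limma. With the spread shared over all 48 mice *Grin1* was called at 1.04 (adjusted p = 0.00655 from limma). The share of all genes called in that fit is not given here. Its spread is taken over all groups, while the SD of *Grin1* was 50.5 CPM in these nPM mice.

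*Grin2a* measured 171, 167, 146 and 164 CPM in the B6 female controls and 129.5, 135, 78 and 124 CPM with nPM. These groups did not overlap either, and the log2 difference of −0.46 (standard error 0.17) did not pass the threshold (adjusted p = 0.406 from limma). *Grin2b* measured 261, 262, 172 and 211 CPM in controls and 190.2, 201, 157 and 179.8 CPM with nPM, an overlap, with a log2 difference of −0.25 (standard error 0.16). *Grin2c* measured 14.1, 13.1, 15.1 and 17.4 CPM in controls and 2.83, 6.54, 19.3 and 10.2 CPM with nPM. The nPM mice spread over a wider range than the controls, from below the lowest to above the highest control, and the log2 difference came to −0.82 (standard error 0.43, adjusted p = 0.52 from limma), and with the GC slope as a covariate it was −2.32 and called (adjusted p = 0.471 from limma). *Grin2d* measured 2.3 to 11.3 CPM in controls and 6.78 to 10.7 CPM with nPM, and *Grin3a* 11 to 16.5 CPM and 8.95 to 19.6 CPM, with log2 differences of 0.68 (standard error 0.39) and −0.012 (standard error 0.28). In B6 females neuron markers summed to 6142 to 6588 CPM in controls and 4254 to 6451 CPM with nPM, and excitatory neuron markers to 1037 to 1245 and 806 to 1377 CPM. Astrocyte markers did not overlap, with 3349 to 3744 CPM in controls and 2684 to 3226 CPM with nPM. The part of these sums and of the GC slopes, which overlapped between the groups and reached higher in nPM females, was not tested.

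**Figure D3:**
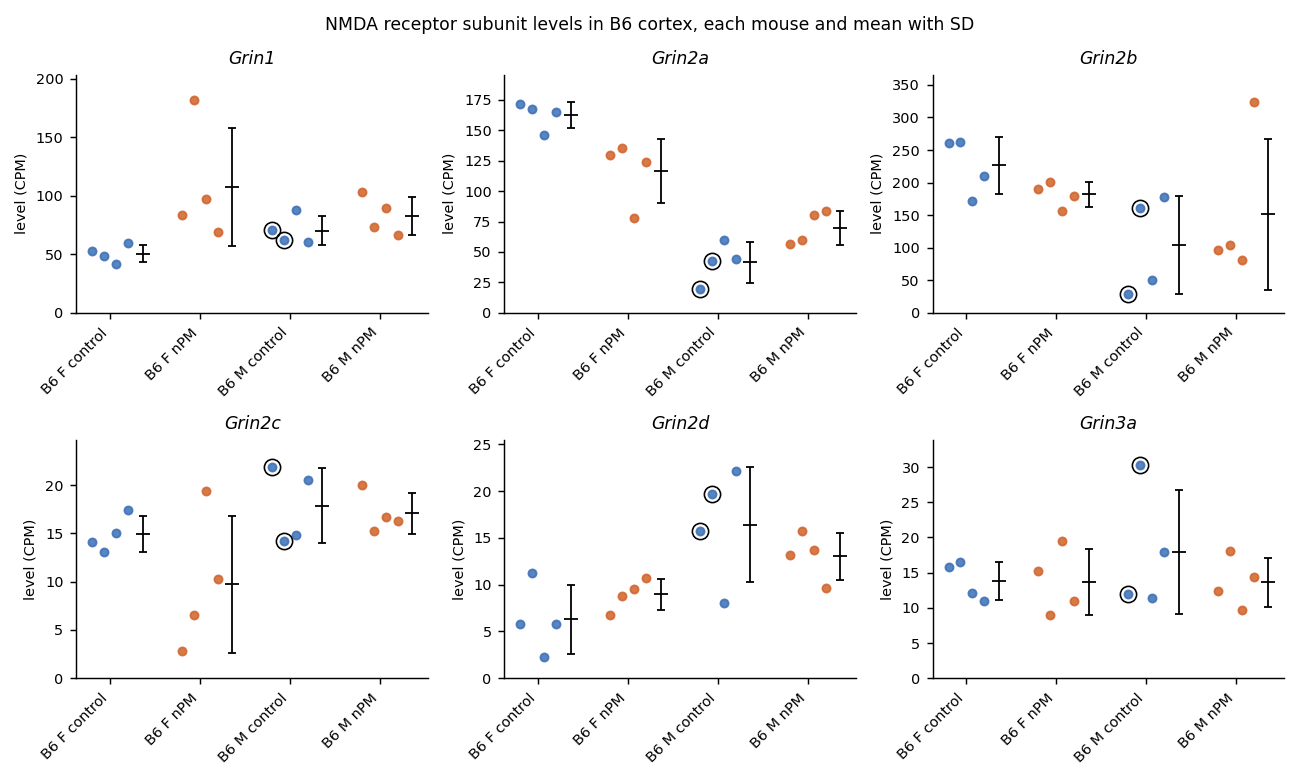
Level of each subunit (CPM) in each B6 mouse by sex (F, M) and exposure, with the group mean and SD in black beside the points. The 4 *Grin1* values of nPM females lie above those of the female controls, *Grin2a* is lower in males than in female controls, and rings mark male controls 0 and 2.

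In B6 males no subunit was called (0 of 6 by limma and by voom, here run on CPM), where 0.24% of all genes were. At an unadjusted p under 0.05 there was 1 of 6, with 4.35% of all genes. *Grin2a* measured 19.4, 42.3, 59.5 and 44.6 CPM in controls and 56.6, 59.5, 80 and 84 CPM with nPM. The groups overlapped, with control 0 lowest, and the log2 difference was 0.82 (standard error 0.30, adjusted p = 0.999 from limma). Without controls 0 and 2 it was 0.40 (adjusted p = 1 from limma), and without control 3 it was 1.02 and called (adjusted p = 0.248). *Grin2b* spread most in these males, with 28.7, 161, 50 and 177 CPM in controls and 95.8, 104, 80.7 and 324 CPM with nPM. *Grin1* measured 70.6, 62.2, 87.7 and 60.9 CPM in controls and 103, 73.1, 89.3 and 66.7 CPM with nPM, and its log2 difference was 0.22 (standard error 0.20). The differences of *Grin2c*, *Grin2d* and *Grin3a* were −0.063, −0.27 and −0.32 with standard errors of 0.24, 0.32 and 0.33. That of *Grin2b* was 0.65 (standard error 0.54). Without controls 0 and 2 the differences were 0.15 (*Grin1*), 0.42 (*Grin2b*), −0.049 (*Grin2c*), −0.073 (*Grin2d*) and −0.11 (*Grin3a*), none called. *Grin2d* was highest in control 6 (22.2 CPM), the library with the fewest reads (2.05 M), and *Grin3a* in control 2 (30.3 CPM).

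In *APOE*3 females the means of all 6 subunits were higher with nPM, and none was called (0 of 6 by limma, voom and edgeR), where 0.671% of all genes were. At an unadjusted p under 0.05 were 2 of 6 and 21% of all genes. *Grin1* measured 143, 39.5, 137 and 63.4 CPM in controls 52, 61, 63 and F6, and 121, 230.2, 222 and 168 CPM in nPM mice 55, 59, 67 and 70. Controls 61 and F6 were the lowest, and nPM mouse 55 fell below controls 52 and 63. *Grin2a* measured 9.16, 1.25, 6.62 and 2.61 CPM in these controls and 7.03, 17.5, 11.1 and 9.35 CPM with nPM, and *Grin2b* 18.7, 3.89, 8.25 and 4.12 and 7.51, 30.7, 17 and 15.6 CPM. Controls 61 and F6 were again lowest, and the ranges of control and nPM mice overlapped for each of the 6 subunits, whereas those of 6.61% of all genes did not. The log2 differences were 1.16 (standard error 0.45) for *Grin1* (adjusted p = 0.23 from limma), 1.40 (standard error 0.55) for *Grin2a* and 1.15 (standard error 0.56) for *Grin2b*. They were 0.77 (standard error 0.48) for *Grin2c*, 0.80 (standard error 0.38) for *Grin2d* and 0.73 (standard error 0.39) for *Grin3a*. Without controls 61 and F6 the 6 differences, in the same order, were 0.38, 0.45, 0.35, −0.066, 0.19 and 0.059, none of them called. With the length slope as a covariate they were 0.13, 0.17, 0.014, −0.23, −0.032 and −0.13, again with none called. Of the 10 marker lists, interneuron markers (707 to 892 CPM in controls, 606 to 693 CPM with nPM) and microglia markers (288 to 368 and 208 to 277 CPM) did not overlap between the groups, and their part was not tested. With the spread shared over all 48 mice *Grin1* and *Grin2a* were called (adjusted p = 0.00579 and adjusted p = 0.00667 from limma). The share of all genes called in that fit is not given here. Its spread is taken over all groups, while the SD of *Grin1* was 52.2 CPM in these controls. In the *APOE*3 male and the *APOE*4 groups that SD was 9.59 to 25.2 CPM.

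**Figure D4:**
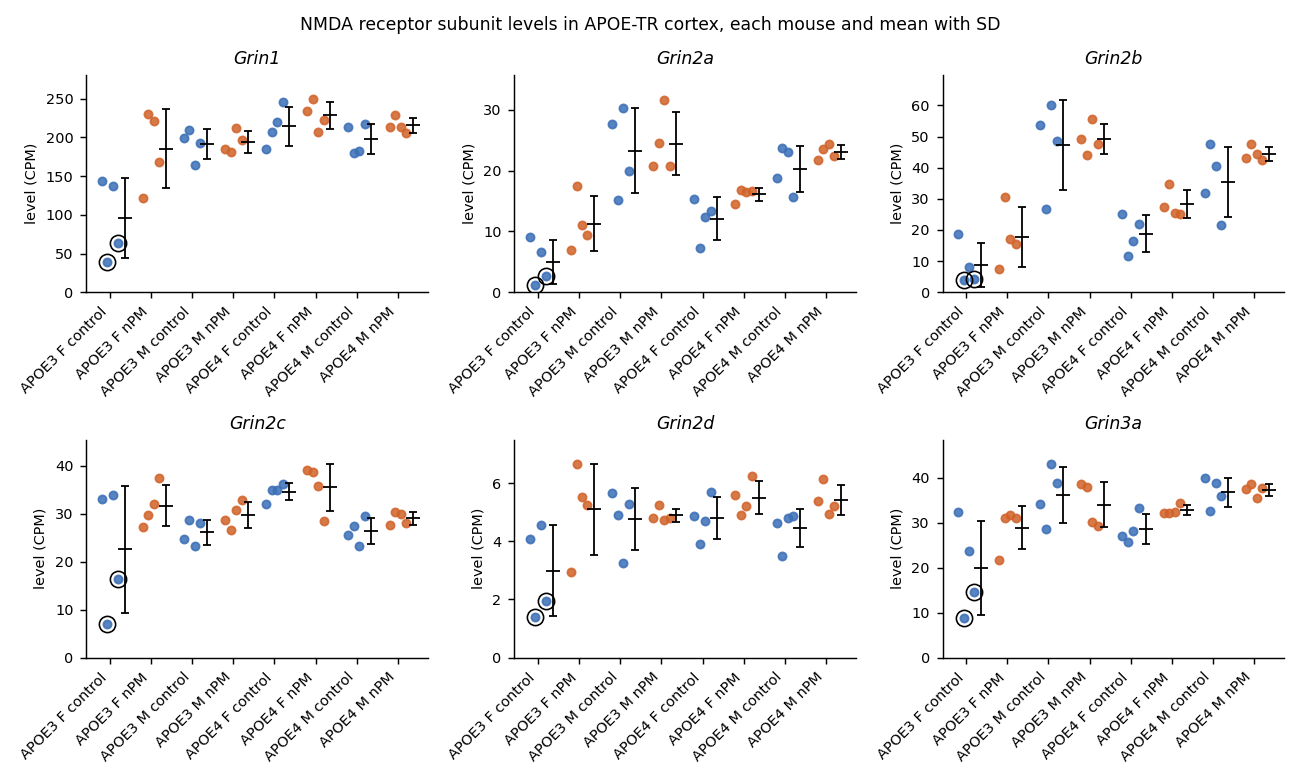
Level of each subunit (CPM) in each *APOE*-TR mouse by allele, sex (F, M) and exposure, with the group mean and SD in black beside the points. Rings mark *APOE*3 female controls 61 and F6, which have the lowest value of all *APOE*-TR mice for each subunit, and nPM mouse 55 is the next lowest for *Grin1*, *Grin2b*, *Grin2d* and *Grin3a*.

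In *APOE*4 females none of the 6 subunits was called either (limma, voom and edgeR), where 0.266% of all genes were. An unadjusted p under 0.05 was found for 3 of 6 and 5.56% of all genes. *Grin2b* came closest to the threshold, with 25.2, 11.6, 16.5 and 22 CPM in controls and 27.5, 34.8, 25.5 and 25.1 CPM with nPM. The groups overlapped by 1 control, control 7, and the log2 difference was 0.62 (standard error 0.21, adjusted p = 0.754 from limma). Without that control it was 0.78 and called (adjusted p = 0.833). *Grin2a* measured 15.4, 7.21, 12.4 and 13.4 CPM in controls and 14.5, 16.8, 16.4 and 16.6 CPM with nPM, a log2 difference of 0.45 (standard error 0.19). *Grin3a* measured 27.1, 25.7, 28 and 33.3 CPM and 32.2, 32.1, 32.3 and 34.4 CPM, a difference of 0.21 (standard error 0.079), and without control 38, its highest control, of 0.28 and called (adjusted p = 0.516 from limma). For *Grin1*, at 185 to 245 CPM in controls and 208 to 249.8 CPM with nPM, the difference was 0.11 (standard error 0.090). *Grin2c* and *Grin2d* differed by 0.039 (standard error 0.098) and 0.20 (standard error 0.12).

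In *APOE*3 males *Grin1* averaged 192 ± 19.5 CPM (SD, n = 4) in controls and 194 ± 14.4 CPM (SD, n = 4) with nPM, a log2 difference of 0.026 (standard error 0.081). None of the 6 was called (limma, voom and edgeR, 1 at an unadjusted p under 0.05), where 0.154% of all genes were (2.24% at an unadjusted p under 0.05), and the differences ran from −0.076 (*Grin3a*) to 0.19 (*Grin2c*). In *APOE*4 males *Grin1* averaged 198 ± 19.8 CPM (SD, n = 4) in controls and 216 ± 9.59 CPM (SD, n = 4) with nPM, a difference of 0.13 (standard error 0.069). All 6 differences were above 0, from 0.035 (*Grin3a*) to 0.39 (*Grin2b*), and none was called (limma, voom and edgeR, 1 at an unadjusted p under 0.05), where 0.178% of all genes were (4.19% at an unadjusted p under 0.05). *Grin2d*, the lowest of the 6, measured 4.63, 3.48, 4.8 and 4.85 CPM in controls and 5.38, 6.13, 4.95 and 5.2 CPM with nPM. These did not overlap, which held for 2.54% of all genes, and the log2 difference came to 0.27 (standard error 0.11, adjusted p = 0.955 from limma). With the GC slope as a covariate *Grin2a* (0.34, adjusted p = 0.977) and *Grin2b* (0.64, adjusted p = 0.938) were called by limma in these males.

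Whether the nPM response differed between sexes was tested as a contrast of the 12 groups. The *Grin1* response was higher in females than in males by 0.64 (standard error 0.21) on the log2 scale (adjusted p = 0.235 from limma). It was the 1 of 6 subunits called, where 1.96% of all genes were, and 3 of 6 against 13.6% had an unadjusted p under 0.05. The female differences behind it were 1.03, 1.16 and 0.11 in B6, *APOE*3 and *APOE*4 mice, and the male ones 0.22, 0.026 and 0.13. Without controls 61 and F6 the contrast was 0.39 (adjusted p = 0.833 from limma) and no longer called, nor was it with the length slope (0.53, adjusted p = 0.345) or the GC slope (0.31, adjusted p = 0.79) as a covariate. Without B6 male controls 0 and 2 it was 0.66 and called (adjusted p = 0.158 from limma). For *Grin2d* and *Grin3a* the contrast was 0.53 (standard error 0.24) and 0.43 (standard error 0.21), and for *Grin2a*, *Grin2b* and *Grin2c* it was 0.086, 0.12 and −0.097, within 1 standard error of 0. Between the alleles, tested over the 32 *APOE*-TR mice, the estimated contrast of *APOE*4 minus *APOE*3 was below 0 for all 6, from −0.47 (*Grin1*, standard error 0.26) to −0.12 (*Grin2b*, standard error 0.37). None was called (limma, voom and edgeR, 0 at an unadjusted p under 0.05), where 0.726% of all genes were (10.6% at an unadjusted p under 0.05). Without controls 61 and F6, 5 of the 6 turned above 0 and *Grin1* stood at −0.076.

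*APOE*4 was compared with *APOE*3 to ask for effects of the allele itself, at the 5% FDR threshold used for genotype. Over 48 mice the estimates for all 6 subunits were above 0, with a median log2 difference of 0.33 against 0.00028 for all genes, and none passed (limma and voom, 1 at an unadjusted p under 0.05), where 0.37% of all genes did (15.2% at an unadjusted p under 0.05). *Grin1* differed by 0.48 (standard error 0.15, adjusted p = 0.244 from limma), and without controls 61 and F6 by 0.28 (adjusted p = 0.9997 from limma). Without these controls *Grin2a* differed by 0.13, *Grin2b* by 0.11, *Grin2c* by 0.078, *Grin2d* by 0.12 and *Grin3a* by 0.10. Of all settings, sample quality weights alone brought *Grin1* under the threshold, with 0.16 and an adjusted p of 0.04999 (limma). In females in filtered air *Grin1* measured 143, 39.5, 137 and 63.4 CPM in *APOE*3 and 185, 207, 219.6 and 245 CPM in *APOE*4 controls. The alleles did not overlap, a pattern shared by 29.3% of all genes in this comparison, and the log2 difference was 1.41 (standard error 0.41, adjusted p = 0.0766 from limma). The differences of the other 5 ran from 0.73 (*Grin3a*) to 1.53 (*Grin2a*). None of the 6 passed 5% FDR (limma, voom and edgeR, 4 at an unadjusted p under 0.05), where 0.231% of all genes did and 41.1% had an unadjusted p under 0.05. Cerebellar markers did not overlap between these controls (134 to 203 CPM in *APOE*3, 90.6 to 116 CPM in *APOE*4), and their part was not tested.

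The *APOE*3 female controls are the same mice as in the nPM comparison above, so both rest on controls 61 and F6. Without them *Grin1* stood at 0.62 and passed (adjusted p = 0.0397 from limma), while the other 5 lay between 0.055 (*Grin3a*) and 0.58 (*Grin2a*). With control 52 left out instead, 4 of the 6 passed, among them *Grin1* at 1.68 (adjusted p = 0.0251 from limma). With the spread shared over the 32 *APOE*-TR mice all 6 passed. The shares of all genes passing in these refits are not given here, and in the main fit 41.1% of all genes had an unadjusted p under 0.05. With the length slope as a covariate *Grin1* differed by 0.22, *Grin2a* by 0.0066 and *Grin2b* by 0.13. *Grin2c*, *Grin2d* and *Grin3a* then stood at −0.42, −0.17 and −0.34, and none of the 6 passed. In nPM females *Grin1* differed by 0.36 (standard error 0.18), *Grin2a* by 0.59 (standard error 0.22) and *Grin2b* by 0.82 (standard error 0.33). None passed (limma, voom and edgeR, 2 at an unadjusted p under 0.05), where 0.145% of all genes did (9.12% at an unadjusted p under 0.05). *Grin3a* was 21.7, 31.1, 31.6 and 30.9 CPM in *APOE*3 and 32.2, 32.1, 32.3 and 34.4 CPM in *APOE*4 nPM females, ranges without overlap (as for 5.92% of all genes), with nPM mouse 55 lowest and a log2 difference of 0.21 (standard error 0.12). In males in filtered air the differences ran from −0.41 (*Grin2b*) to 0.050 (*Grin1*), none passed (limma, voom and edgeR, 0 at an unadjusted p under 0.05) and 0.439% of all genes did (5.81% at an unadjusted p under 0.05). With nPM they ran from −0.14 (*Grin2b*) to 0.16 (*Grin1*, adjusted p = 0.386 from limma), none passed (limma, voom and edgeR, 1 at an unadjusted p under 0.05) and 0.498% of all genes did (9.89% at an unadjusted p under 0.05).

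**Figure D5:**
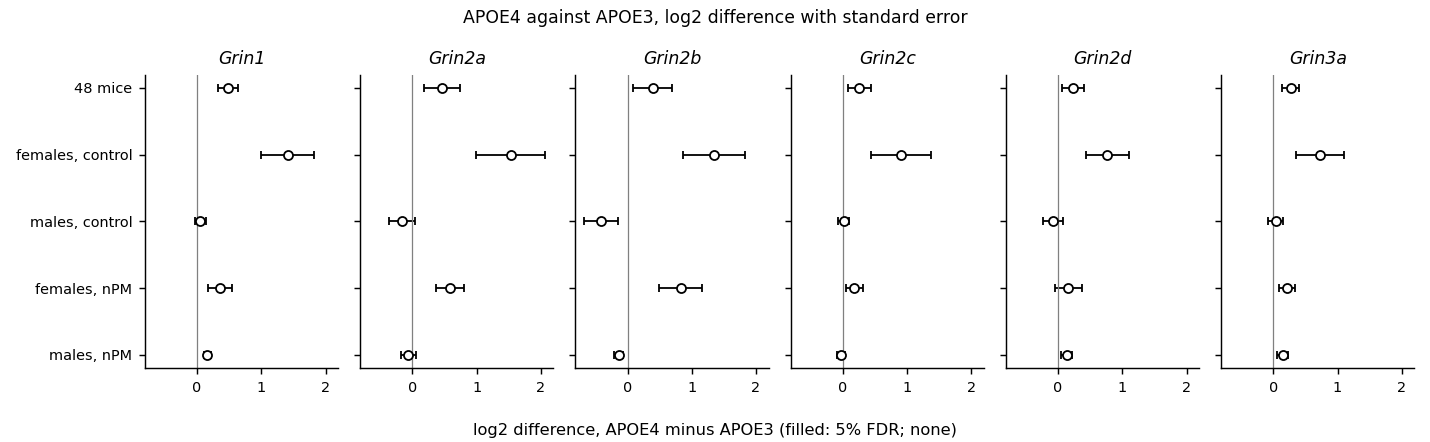
The log2 difference of *APOE*4 from *APOE*3 (x axis) for each subunit over 48 mice and within each sex and exposure, with the standard error from limma. No point is filled, since none passed 5% FDR, and female controls have the largest differences (0.73 to 1.53).

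*Grin1os*, an antisense RNA gene, overlaps *Grin1*. Libraries were stranded, and whether counting used the strand is not given in the sources used here, so reads of the overlap may have gone to either gene. In B6 females *Grin1os* measured 10.9, 8.06, 6.25 and 11 CPM in controls and 7.3, 0.0346, 3.35 and 8.79 CPM with nPM. The ranges overlapped, and nPM mouse 51, the highest for *Grin1*, stood at the value of a gene without reads. In *APOE*3 females it measured 31.2, 4.09, 23.8 and 7.22 CPM and 19.8, 52.6, 52.8 and 34.2 CPM, with the lowest values in the same mice as for *Grin1*.

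The proteins that bind, phosphorylate, traffic or supply the receptor were described by a list of 59 partner genes, from the scaffolds of the postsynaptic density to the kinase CaMKII and the enzymes of glutamate and D-serine supply. For nPM over 48 mice, 1 of 57 measured partners rose and 0 fell, with a median log2 difference of 0.079 beside 0.0054 for all genes. This was a share close to the 1.43% of all genes called. At an unadjusted p under 0.05 were 13 of 57 partners and 14.6% of all genes, and 44 of 57 estimates were above 0. Without *APOE*3 female controls 61 and F6, 3 of 57 partners had such a p. The share of all genes in that refit is not given here. The one that rose was *Dlgap4*, a scaffold protein that binds PSD-95, by 0.33 (standard error 0.11, adjusted p = 0.302 from limma). It was not called without *APOE*3 female controls 61 and F6 (0.23, adjusted p = 0.777 from limma) or without B6 male controls 0 and 2 (0.31, adjusted p = 0.334 from limma). Its level averaged 52.5 ± 11.1 CPM (SD, n = 4) in B6 female controls and 80.7 ± 24.6 CPM with nPM, and 97.4 ± 51 and 149.8 ± 34 CPM in *APOE*3 females. Its differences in females were 0.63 in B6 and 0.82 in *APOE*3, neither of which was called alone, and the latter was 0.075 without controls 61 and F6. In the single groups at most 1 partner was called by limma, and 0 in *APOE*4 females and *APOE*3 males. There 4 of 58 and 3 of 59 partners had an unadjusted p under 0.05, as did 5.56% and 2.24% of all genes. Called were 1 of 58 in B6 females (*Camk2b*, 0.56, adjusted p = 0.383) and 1 of 57 in B6 males (*Dlgap2*, 1.36, adjusted p = 0.999). The others were 1 of 58 in *APOE*3 females (*Rasgrf2*, 0.67, adjusted p = 0.23) and 1 of 59 in *APOE*4 males (*Shank1*, 0.24, adjusted p = 0.955), all from limma. These called partners were all higher with nPM and were named here after their values were seen. The shares of all genes called in these 4 groups were 1.19%, 0.24%, 0.671% and 0.178%. *Dlgap2* in B6 males was not called without controls 0 and 2 (0.91), and *Rasgrf2* in *APOE*3 females was still called without controls 61 and F6 (0.54). Of the 11 AMPA, kainate and delta receptor genes, 0 were called over 48 mice by limma, with a median log2 difference of 0.023. An unadjusted p under 0.05 was found for 1 of the 11 and 14.6% of all genes. For *APOE*4 against *APOE*3 over 48 mice, 1 of 57 partners passed 5% FDR, where 0.37% of all genes did. *Glul*, the glutamine synthetase of astrocytes, differed by −0.36 (standard error 0.082, adjusted p = 0.0221 from limma), and did not pass without *APOE*3 female controls 61 and F6 (−0.30, adjusted p = 0.136 from limma). It averaged 1788 ± 227 CPM (SD, n = 4) in *APOE*3 and 1210.1 ± 314 CPM in *APOE*4 female controls, and 1222 ± 74.5 and 1045 ± 146 CPM in male controls. Astrocyte markers summed to 3970 to 4132 CPM in *APOE*3 and 3461 to 3774 CPM in *APOE*4 male controls, without overlap, and their part was not tested.

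The genes whose log2 levels varied most like those of each subunit were taken as the 3 with the highest value of the smaller of their Pearson correlations over the 32 *APOE*-TR and the 16 B6 mice, among 11086 genes. The value in parentheses is that smaller correlation. *Grin1* was matched by *Eif3b* (0.83), *Rusc2* (0.78) and *Anks6* (0.78). *Grin2a* was matched by *Lrrc8b* (0.96), *Fam135b* (0.94) and *Aak1* (0.94). *Grin2b* was matched by *Setbp1* (0.95), *Tnr* (0.94) and *Atrn* (0.94). *Grin2c* was matched by *Faap100* (0.83), *Usp10* (0.82) and *Sh3bp1* (0.81). *Grin2d* was matched by *Raver1* (0.88), *Ptpn23* (0.87) and *Cdh4* (0.84). *Grin3a* was matched by *Usp11* (0.78), *Igsf3* (0.78) and *Nrp2* (0.78). Without the 4 named controls these smaller correlations were 0.86 to 0.94 for *Grin2a*, 0.90 to 0.92 for *Grin2b* and 0.72 to 0.74 for *Grin3a*. They were 0.47 to 0.80 for *Grin1*, 0.47 to 0.67 for *Grin2c* and 0.43 to 0.61 for *Grin2d*. No subunit was among the 3 genes most like another, and the mice behind these correlations share the library slopes described above.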

How the data were processed

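Polyadenylated RNA of the cerebral cortex was sequenced by the study from stranded TruSeq libraries, single-end on a NextSeq500. The submitters aligned and quantified reads on RefSeq mm10 with TopHat2 2.0.8b in Partek Flow, kept uniquely mapping reads and deposited CPM (read counts scaled to a common library total) per gene for each mouse. The step that scaled the deposited CPM is not given in the sources used here, nor is the RefSeq release behind each table, whose gene bounds differ. Deposited values are above 0 for genes without reads, so reads were estimated from the steps between low values. Listings repeated for a symbol (4 in each table) were left out. The column of control F6 names its group but no sample title, and was used as a replicate of that group.

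CPM were scaled by TMM (edgeR 4.0.16), and log2(CPM + 0.5) was fitted with limma 3.58.1 (eBayes with trend, R 4.3.3) on all genes above the no-read value in every mouse of the fit. A fold change on this scale understates that of low genes. Over 48 mice the model held sex, genotype and nPM, and single groups were fitted alone. Calls were at an unadjusted p under 0.005 for nPM and at 5% FDR for alleles, with Benjamini-Hochberg adjustment over all genes. Animals were separate, and the p-values are two-sided. DESeq2 1.42.0 size factors, ComBat (sva 3.50.0), voom, edgeR on recovered reads, pseudocounts of 0.1 and 2, no filter, covariates for library slopes and left-out mice were alternatives. In all comparisons voom was run on CPM rather than on read counts, so its weights do not reflect the depth of each library. The fit was also run on simulated data with independent noise and a known change, larger than the called *Grin1* differences. The simulation held no library slopes or outlying libraries, so it says nothing on their part in the results.

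By rule the text names the 6 subunits, the partners called over 48 mice and the 3 genes most like each subunit. Partners called in single groups, *Grin1os* and *Grin3b* were named outside that rule, after their values were seen. The members and the lists were chosen with earlier results of these data known. Levels per kilobase used the part of a GENCODE M21 transcript inside each table's bounds. Summed levels of 7 markers per cell type were used for the libraries.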

Additional observations from a re-analysis of the deposited data

Results flagged for a closer look

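In 72 sets of 4 mice, the value of 1 mouse lay far from the other 3 in 5, where chance gives about 1 in 20 sets. *Grin2b* stood at 324 CPM in B6 male nPM mouse 16, and at 80.7 to 104 CPM in the other mice of its group. *Grin2d* stood at 5.23 CPM in *APOE*3 male nPM mouse 56, and at 4.74 to 4.81 CPM in the other mice of its group. *Grin2d* stood at 3.48 CPM in *APOE*4 male control mouse 21, and at 4.63 to 4.85 CPM in the other mice of its group. *Grin3a* stood at 21.7 CPM in *APOE*3 female nPM mouse 55, and at 30.9 to 31.6 CPM in the other mice of its group. *Grin3a* stood at 34.4 CPM in *APOE*4 female nPM mouse 39, and at 32.1 to 32.3 CPM in the other mice of its group. The nPM response of *Grin1* was higher in females than in males by 0.64 on the log2 scale at an unadjusted p under 0.005 (adjusted p = 0.235 from limma) in the test of the difference itself. That call was lost without *APOE*3 female controls 61 and F6 (0.39), with the length covariate (0.53), with the GC covariate (0.31) and in 14 of the 48 fits that left out 1 mouse.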

How the results depend on the processing

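Across the alternatives other than leaving out 1 mouse, 832 values of single subunits kept their direction and their side of the threshold, 9 lost a call, 15 gained one and 50 changed sign. With 1 mouse left out, 1479 values kept both, 14 lost a call, 7 gained one and 36 changed sign. *Grin1* over 48 mice kept its call with each mouse left out, with DESeq2's size factors, no TMM, both other pseudocounts, no filter, voom and the length covariate.

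The number of subunits called for nPM over 48 mice, 1, became 0 in males, in *APOE*-TR mice, with sample quality weights and with the GC covariate, and 2 as an average over the 12 group means. In B6 females it became 0 without the filter, and the GC covariate exchanged *Grin1* for *Grin2c*. In *APOE*4 males it went from 0 to 2 with the GC covariate, and in *APOE*3 females from 0 to 2 with the spread shared over 48 mice. For *APOE*4 against *APOE*3 it went from 0 to 1 over 48 mice with sample quality weights, and in female controls from 0 to 6 with the spread shared over 32 mice and to 1 without controls 61 and F6. For the sex contrast it went from 1 to 0 with the length covariate and without controls 61 and F6, and with the GC covariate the 1 called was *Grin2c*. With 1 mouse left out the counts ranged from 0 to 1 in B6 males and *APOE*4 females, from 0 to 4 for *APOE*4 against *APOE*3 in female controls (4 without *APOE*3 control 52) and from 0 to 1 for the sex contrast. The shares of all genes called in these alternative fits are not given here.

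The sex contrast of *Grin1* lost its call without any 1 of B6 female control 42, B6 male control 3, B6 female nPM 51, B6 male nPM 11 or 16, *APOE*3 male control 55, *APOE*4 male control 3 or 91, *APOE*4 female control 7, *APOE*3 female control 61 or F6, *APOE*3 female nPM 59 or 67 and *APOE*4 female nPM 23, with values from 0.52 to 0.63 (limma).

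Values that follow are log2 differences. With the length covariate the sign changed for *Grin3a* −0.0022 (nPM in 48 mice), *Grin1* −0.017, *Grin2c* −0.040 (nPM in *APOE*4 females), *Grin2c* −0.23, *Grin2d* −0.032, *Grin3a* −0.13 (nPM in *APOE*3 females), *Grin2a* −0.026, *Grin2b* −0.12 (alleles in 48 mice), *Grin2c* −0.42, *Grin2d* −0.17, *Grin3a* −0.34 (alleles in air, females), *Grin1* −0.049, *Grin2d* −0.24, *Grin3a* −0.015 (alleles under nPM, females), *Grin2a* 0.11 (alleles under nPM, males), *Grin2a* −0.21, *Grin2b* −0.30 (sex contrast), *Grin2a* 0.093, *Grin2b* 0.37, *Grin2d* 0.089, *Grin3a* 0.12 (allele contrast). In females alone the sign changed for *Grin2c* −0.012 (nPM in 48 mice). In males alone the sign changed for *Grin3a* −0.13 (nPM in 48 mice). In B6 mice alone the sign changed for *Grin2c* −0.46, *Grin3a* −0.18 (nPM in 48 mice). With the GC covariate the sign changed for *Grin2c* −0.17 (nPM in 48 mice), *Grin1* −0.0077 (nPM in *APOE*3 males), *Grin2c* −0.11, *Grin3a* −0.043 (nPM in *APOE*3 females), *Grin2c* −0.39, *Grin2d* −0.14, *Grin3a* −0.31 (alleles in air, females), *Grin2a* 0.018 (alleles under nPM, males), *Grin2a* −0.079 (sex contrast), *Grin2b* 0.15, *Grin2d* 0.12, *Grin3a* 0.055 (allele contrast). Without controls 61 and F6 the sign changed for *Grin2c* −0.088, *Grin3a* −0.028 (nPM in 48 mice), *Grin2c* −0.066 (nPM in *APOE*3 females), *Grin2a* −0.22, *Grin2b* −0.14 (sex contrast), *Grin2a* 0.057, *Grin2b* 0.28, *Grin2c* 0.038, *Grin2d* 0.11, *Grin3a* 0.14 (allele contrast). Without the filter the sign changed for *Grin3a* 0.044 (nPM in B6 females). With sample quality weights the sign changed for *Grin2b* −0.11 (alleles in 48 mice). With a pseudocount of 2 the sign changed for *Grin2a* −0.014 (sex contrast). With 1 mouse left out, differences that changed sign ranged as follows, in log2 units: *Grin2c* −0.046 to 0.13 (nPM in 48 mice), *Grin3a* −0.21 to 0.16 (nPM in B6 females), *Grin2c* −0.16 to 0.035 (nPM in B6 males), *Grin1* −0.050 to 0.072, *Grin2a* −0.079 to 0.24, *Grin2b* −0.13 to 0.25, *Grin2d* −0.098 to 0.15, *Grin3a* −0.18 to 0.0084 (nPM in *APOE*3 males), *Grin3a* −0.021 to 0.076 (nPM in *APOE*4 males), *Grin2c* −0.017 to 0.14 (nPM in *APOE*4 females), *Grin1* −0.025 to 0.096, *Grin2c* −0.043 to 0.076, *Grin2d* −0.24 to 0.021, *Grin3a* −0.070 to 0.12 (alleles in air, males), *Grin2d* −0.062 to 0.29 (alleles under nPM, females), *Grin2a* −0.13 to 0.065, *Grin2c* −0.078 to 0.020 (alleles under nPM, males), *Grin2a* −0.059 to 0.22, *Grin2b* −0.0057 to 0.28, *Grin2c* −0.25 to 0.049 (sex contrast), *Grin2b* −0.35 to 0.031 (allele contrast). In *APOE*-TR mice 92.6% to 93.4% of values under 200 steps lay within 0.05 of a whole number of steps, and edgeR on the reads so recovered called 26, 35, 41 and 121 genes for nPM in *APOE*3 males, *APOE*4 males, *APOE*4 females and *APOE*3 females, 33, 70, 23 and 86 between alleles in control females, control males, nPM females and nPM males, and 120 for the allele contrast, with no subunit among them. No paired analysis was made, because the groups compared hold separate animals. The cause of each change above was not tested. The GC covariate and both sets of left-out controls were chosen after seeing the data.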

Other observations

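Levels also differed between the sexes, which no comparison above covers and which was not tested. In B6 mice *Grin2a* measured 78 to 171 CPM (median 141) in 8 females and 19.4 to 84 CPM (median 58) in 8 males, ranges that overlapped by 1 female. In *APOE*-TR mice the order was the opposite. *Grin2a* measured 6.62 to 17.5 CPM (median 12.9) in the 14 females other than controls 61 and F6 and 15.2 to 31.6 CPM (median 22.7) in 16 males, and *Grin2b* 7.51 to 34.8 CPM (median 20.3) and 21.5 to 60 CPM (median 46). *Grin2c* was higher in those females than in males by its median, with 27.4 to 39.1 CPM (median 34.4) against 23.2 to 32.8 CPM (median 28.1). The length slope was −0.22 to 0.028 in those females and 0.058 to 0.16 in *APOE*-TR males, without overlap. Sex and length slope therefore cannot be told apart in these mice. In B6 mice the GC slope was −0.49 to 0.082 in females and 0.018 to 0.47 in males, and its part was not tested.

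*Grin3b*, the other GluN3 gene, was barely detected in cortex. It measured 0.0288 to 1.01 CPM over the 48 mice, on an estimated 0 to 17 reads.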
